A study of Mus musculus with 10 samples.

Results

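The genes followed in whole lung were 7 linked to the making of nitric oxide. They were the nitric oxide synthases Nos1, Nos2 and Nos3 and the Nos3 trafficking protein gene Nostrin. The others were the cofactor enzyme gene Gch1 and the Ddah family genes Ddah1 and Ddah2. All 7 were taken by gene symbol and were found, once each, among the 54532 genes of the deposited table. Wild-type C57BL/6J mice in 2 groups were compared. In the increased pulmonary flow (IPF) group, the abdominal aorta was punctured through into the inferior vena cava at postnatal day 7 (P7), which makes an aortocaval fistula, and in the sham group the same operation was done without the puncture. Lungs were collected at P30, with 5 IPF and 5 sham libraries. The labels do not name the animal behind each library, so p-values measure the spread between these samples. Nostrin was 1.20-fold higher in IPF, a call lost in 10 of 21 alternative settings and made beside a higher endothelial marker level in the same lungs, whereas neither Nos3 nor Nos2 passed the test and Nos1 was too low for the fit across genes.

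Nitric oxide is made from arginine by the synthases, with citrulline as the other product, and tetrahydrobiopterin as a cofactor. In lung vessels the endothelial enzyme Nos3 is the classical source, and nitric oxide relaxes smooth muscle by activating soluble guanylate cyclase. Methylated arginines released from proteins, such as asymmetric dimethylarginine, inhibit the synthases, and the Ddah family is known for breaking them down.

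Depth was even, at 15483046 to 19026843 reads per library as recovered from the FPKM steps. The circadian clock list differed between the groups, with 12 of 13 genes passing the test (3 higher and 9 lower) and summed levels of 89.7 to 160.8 FPKM in IPF against 289 to 344 in sham. Clock level and operation therefore cannot be told apart in any result below, and the methods give no time of day of collection. Xist was at 26.8 to 43.2 FPKM in IPF and at 0.0301 to 0.0767 FPKM in sham, and Ddx3y, Eif2s3y, Kdm5d and Uty were listed at 0 in every IPF library, so sex and operation cannot be told apart in any result below, although the methods state that pups of both sexes were used. IPF replicate 5 stood apart in its neutrophil markers (300.9 FPKM summed, against 52.9 to 74.2 in the other IPF libraries and 15.2 to 72.7 in sham). All 7 of these markers had positive log2 fold changes, with 0 passing and a mean log2 level 1.09 higher in IPF (exact permutation test, p = 0.0317). Interstitial macrophage markers were 0.40 higher in mean log2 level (exact permutation test, p = 0.00794), with summed levels of 84.7 to 107.6 FPKM in IPF and 60.6 to 86.4 in sham, and 1 of 6 passed, Cx3cr1 (log2 fold change 0.97, limma adjusted p = 0.00118). The part of either list in the results below was not tested. Sham replicate 1 had the lowest weight (0.431) when limma weighted libraries by their scatter. In whole lung, fewer cells of a type and less RNA per cell cannot be told apart.

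Levels were compared as FPKM, which divides reads by gene length and library size. Ddah2 had the highest mean over the 10 lungs, at 56.5 FPKM, followed by Nostrin at 45.3, Ddah1 at 12.9, Nos3 at 6.37, Gch1 at 2.68, Nos2 at 1.47 and Nos1 at 0.0119 FPKM. Of neighbors in this order, only Ddah2 and Nostrin had overlapping ranges, and Ddah2 was above Nostrin in 5 of 5 IPF lungs and in 4 of 5 sham lungs. The order of all other neighbors was the same in each of the 10 lungs.

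**Figure D1:**
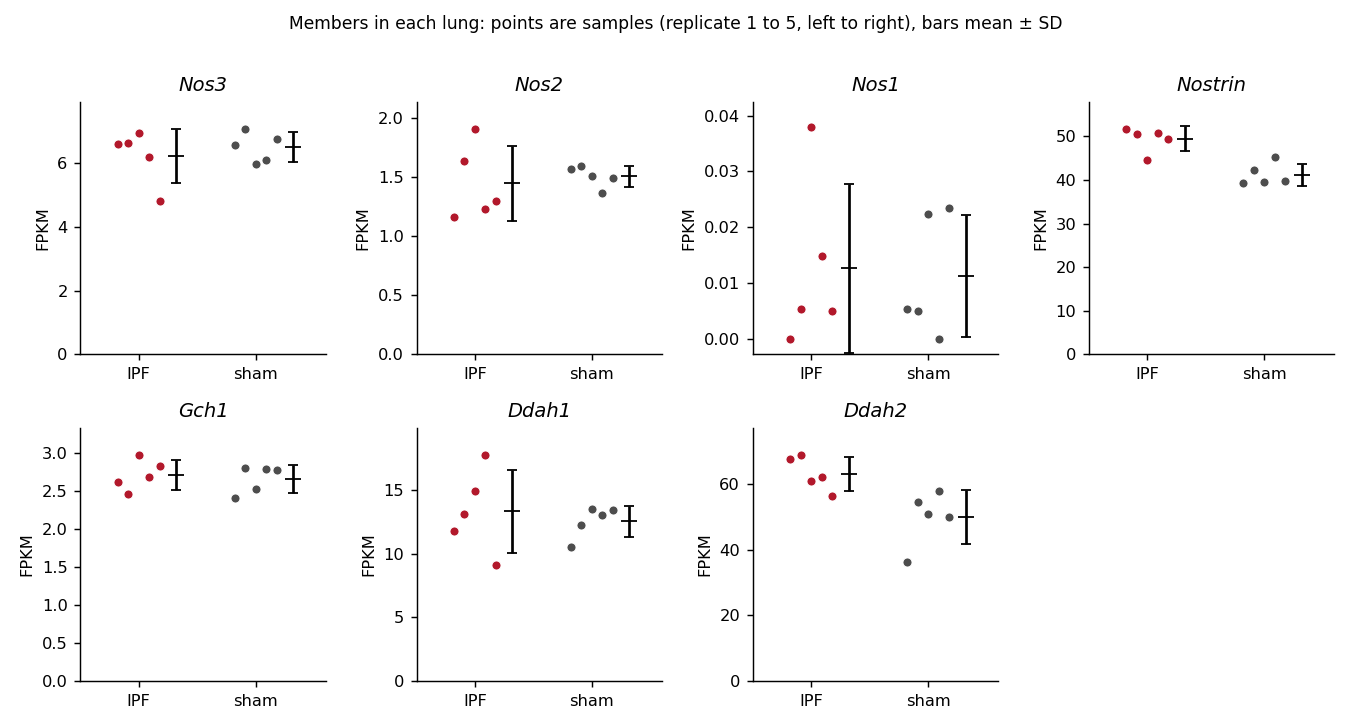
FPKM of the 7 genes in each lung, IPF in red and sham in gray, with each point 1 library and bars the mean ± SD (n = 5), on a linear axis that starts at 0 except for Nos1, where the SD bar runs below 0. For Nostrin and for Ddah2, 4 of 5 IPF points lie above all sham points.

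Of the 7 genes, 6 passed the minimum mean of 0.1 FPKM and were tested with limma on log2(FPKM + 0.1). Of these 6, 1 passed at an adjusted p under 0.05 over all 20448 genes tested, Nostrin (higher), where 5.85% of all genes passed, 3.71% higher and 2.14% lower. It did not pass the additional limit of an absolute log2 fold change above 1, which 1.14% of all genes met. The median log2 fold change of the 6 was 0.04, with 4 higher and 2 lower, and that of all genes was 0.00160.

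**Figure D2:**
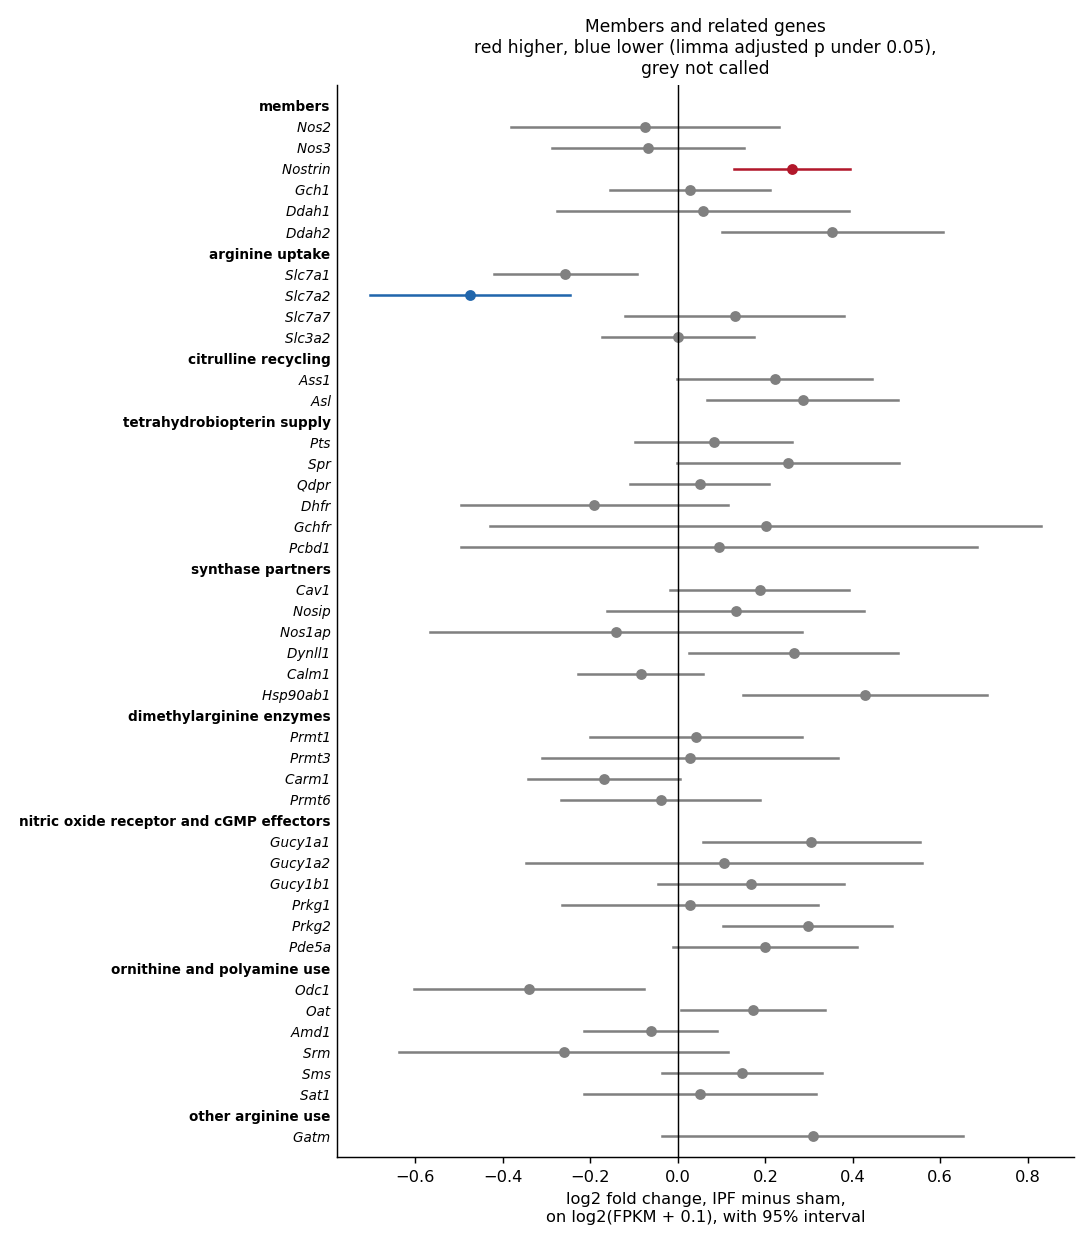
Log2 fold change, IPF minus sham, on log2(FPKM + 0.1), with its 95% interval from limma, for the 6 tested genes and 35 related genes grouped by role. Nostrin (0.26) passed as higher and Slc7a2 (-0.47) as lower at an adjusted p under 0.05, and all others, in gray, did not.

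Nos3 (ENSMUSG00000028978, GRCm38 chromosome 5, 24364810 to 24384474, plus strand), the endothelial synthase, did not pass. Its level was 6.60, 6.64, 6.96, 6.20 and 4.80 FPKM in IPF replicates 1 to 5 and 6.58, 7.09, 5.98, 6.10 and 6.78 FPKM in sham replicates 1 to 5. The groups overlapped throughout, and the lowest of the 10 lungs was IPF replicate 5. The means were 6.24 ± 0.848 and 6.51 ± 0.460 FPKM (SD, n = 5 each), and the log2 fold change was -0.07 (SE 0.10, 95% interval -0.29 to 0.15, limma adjusted p = 0.765). Without IPF replicate 5 the log2 fold change was 0.022. Nos3 overlaps Atg9b and Gm15587 on the opposite strand, which reached at most 0.389 and 0.0985 FPKM in any lung.

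Nos2 (ENSMUSG00000020826, chromosome 11, 78920787 to 78960254, plus strand), the synthase that inflammatory signals induce, was at 1.16, 1.63, 1.91, 1.23 and 1.29 FPKM in IPF and 1.57, 1.59, 1.51, 1.36 and 1.49 FPKM in sham. IPF values lay on both sides of the narrow sham range, with 2 above all sham lungs and 3 below. The log2 fold change was -0.08 (SE 0.14, 95% interval -0.38 to 0.23, limma adjusted p = 0.822). It turned to 0.33 with the endothelial covariate and was -0.18 without IPF replicate 3, and neither passed. The coefficient of variation was 21.8% in IPF and 6.01% in sham, where read counting alone gives 9.40% and 9.56%. The highest Nos2 was in IPF replicate 3, which also had the highest sum of club cell markers (27455 FPKM, against 3712 to 13244 in the other IPF lungs and 11526 to 22991 in sham). The same lung had the highest sums of ciliated airway markers (279 FPKM) and smooth muscle markers (235 FPKM). The part of these lists in the result was not tested.

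Nos1 (ENSMUSG00000029361, chromosome 5, 117781032 to 117958840, plus strand), the neuronal synthase, was close to undetected, with 0 to 8 reads per lung and 23 reads over all 10. It was at 0, 0.00538, 0.0379, 0.0148 and 0.00507 FPKM in IPF and 0.00544, 0.00500, 0.0223, 0 and 0.0235 FPKM in sham. It fell under the minimum for the fit, and no difference between groups was detectable at this depth (exact permutation test of Nos1 alone, p = 0.944). Nos3 therefore supplied most of the synthase FPKM in both groups, 81.1 ± 2.98% in IPF and 81.1 ± 0.941% in sham (SD, n = 5 each).

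Because Nos3 and Nostrin are transcribed mainly in endothelial cells, 10 endothelial markers were read beside them. Their summed level was 1279 to 1451 FPKM in IPF (median 1369) and 1140 to 1185 FPKM in sham (median 1161), with no overlap, none of the 10 was at 0, and their mean log2 level was 0.18 higher in IPF (two-sided exact permutation test, p = 0.00794, the smallest that 5 against 5 allows). Of the 10, 9 had positive log2 fold changes and 2 passed on their own, where 5.85% of all genes did, the tight junction gene Cldn5 (log2 fold change 0.56, limma adjusted p = 0.0107) and the transcription factor gene Tal1 (0.28, limma adjusted p = 0.0430). The markers were uneven, with Cldn5 at 450.5 FPKM on average in IPF and 308.5 in sham, and log2 fold changes of -0.05 for Pecam1, 0.01 for Erg and 0.03 for Tie1. Relative to the mean log2 marker level, Nos3 was at -3.61 ± 0.280 in IPF and -3.37 ± 0.102 in sham (SD, n = 5 each). The difference of -0.25 did not pass (exact permutation test, p = 0.0556), and without IPF replicate 5, which had the lowest Nos3 and the highest marker sum, it was -0.13 (exact permutation test, p = 0.111). It passed without IPF replicate 2 (-0.29, exact permutation test, p = 0.0397), without IPF replicate 3 (-0.30, exact permutation test, p = 0.0317) and with a pseudocount of 1 (-0.23, exact permutation test, p = 0.0476). With the marker level as a covariate Nos3 went the other way, to 0.38 on the log2 scale (SE 0.15, limma adjusted p = 0.216), so no direction is read from either. This covariate itself separated the groups, with mean log2 levels of 6.19 to 6.38 in IPF and 6.08 to 6.11 in sham. Every fit that uses it therefore separates group and marker level poorly. Passes, lost calls and sign turns in such fits are given as values only.

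**Figure D3:**
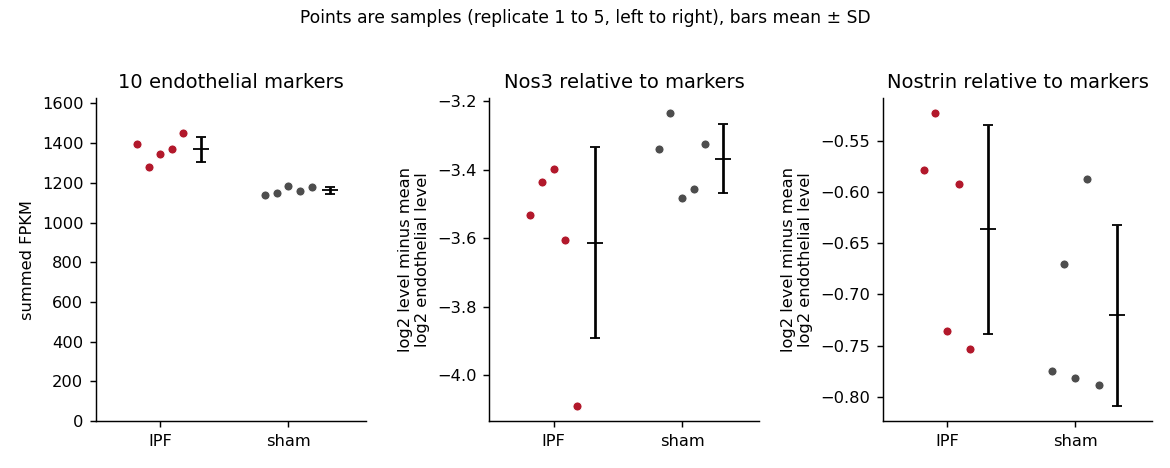
Summed FPKM of 10 endothelial markers, and the log2 level of Nos3 and of Nostrin minus the mean log2 level of those markers, in each lung (points, replicates 1 to 5 from left to right) with the mean ± SD (n = 5). The marker sums do not overlap between IPF (1279 to 1451) and sham (1140 to 1185), while both relative levels do, and IPF replicate 5 is the lowest point for Nos3; the relative-level axes do not start at 0.

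Nostrin (ENSMUSG00000034738, chromosome 2, 69135800 to 69189330, plus strand) encodes a protein that binds Nos3 and takes part in moving it away from the plasma membrane. It was at 51.8, 50.6, 44.6, 50.8 and 49.4 FPKM in IPF and 39.4, 42.4, 39.5, 45.2 and 39.8 FPKM in sham. Of 5 IPF lungs, 4 lay above every sham lung, and IPF replicate 3 lay just under sham replicate 4. Nostrin rose 1.20-fold (log2 fold change 0.26, SE 0.06, 95% interval 0.13 to 0.39, limma adjusted p = 0.0271). The call was lost without any 1 of 7 of the 10 libraries in turn (IPF replicates 1, 2 and 4, sham replicates 1, 2, 3 and 5, limma adjusted p up to 0.0711), with quantile normalization (limma adjusted p = 0.0728) and with no variance trend (limma adjusted p = 0.0640). Over all 21 alternatives the log2 fold change of Nostrin was 0.21 to 0.30. Relative to the endothelial markers, Nostrin was at -0.64 ± 0.102 in IPF and -0.72 ± 0.0890 in sham, a difference of 0.08 that did not pass (exact permutation test, p = 0.198). With the marker level in the model, Nostrin was 0.23 higher on the log2 scale (SE 0.13, limma adjusted p = 0.393).

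Nostrin and Ddah2 were the members with the highest levels and the upward shifts furthest from 0 in standard errors, and their promoters were read to see whether they share short motifs. RefSeq promoter entries (GRCm38.p6) matched 5 of the 7 genes, namely Nos1, Nostrin, Gch1, Ddah1 and Ddah2. The 250 bases before the start are shown, 5′ to 3′ on the gene's strand, with matches to the ETS core GGAA (TTCC on the other strand) and the GC box GGGCGG in capitals; ETS factors are prominent regulators of endothelial genes.
Nostrin, chr2:69135550-69135799, plus strand: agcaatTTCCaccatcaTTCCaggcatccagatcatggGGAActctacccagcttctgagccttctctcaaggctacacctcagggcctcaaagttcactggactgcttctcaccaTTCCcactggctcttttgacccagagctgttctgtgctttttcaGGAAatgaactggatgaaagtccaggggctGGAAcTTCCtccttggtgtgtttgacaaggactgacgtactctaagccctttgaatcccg
Ddah2, chr17:35058785-35059034, plus strand: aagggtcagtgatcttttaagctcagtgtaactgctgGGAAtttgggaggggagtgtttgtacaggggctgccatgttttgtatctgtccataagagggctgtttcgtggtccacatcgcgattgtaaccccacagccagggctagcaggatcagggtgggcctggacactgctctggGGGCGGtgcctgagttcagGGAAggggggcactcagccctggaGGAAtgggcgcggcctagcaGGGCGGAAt

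Nostrin held 7 matches to GGAA and none to GGGCGG, with 50.4% G and C bases. Ddah2 held 4 matches to GGAA and 2 to GGGCGG, the last of which overlaps a GGAA beside the start, with 58.0% G and C bases. Neither window held the E-box CACGTG, the TATA box TATAAA or CCAAT on either strand. Among the 32851 promoters of the same table, over the same 250 bases, GGAA was in 93.4%, GGGCGG in 32.7%, CACGTG in 6.02%, TATAAA in 12.4% and CCAAT in 33.8%. A match is a description of the letters in a window and not a bound site.

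Gch1 (ENSMUSG00000037580, chromosome 14, 47153895 to 47189413, minus strand) encodes GTP cyclohydrolase, the first and rate-limiting enzyme of tetrahydrobiopterin synthesis. It was at 2.62, 2.46, 2.97, 2.68 and 2.82 FPKM in IPF and 2.41, 2.80, 2.52, 2.79 and 2.77 FPKM in sham. The groups overlapped almost fully. The log2 fold change was 0.03 (SE 0.08, 95% interval -0.16 to 0.21, limma adjusted p = 0.902). It turned to -0.071 with the endothelial covariate, and did not pass. The pseudogenes Gm49134 and Gm18811 lie within Gch1 and reached at most 1.06 and 0.177 FPKM.

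Ddah2 (ENSMUSG00000007039, chromosome 17, 35059035 to 35062095, plus strand), 1 of the 2 Ddah family genes, was at 67.5, 68.8, 61.0, 62.0 and 56.2 FPKM in IPF and 36.3, 54.6, 50.7, 58.0 and 49.8 FPKM in sham. Of 5 IPF lungs, 4 lay above every sham lung, and sham replicate 1 was the lowest of the 10. The means were 63.1 ± 5.11 and 49.9 ± 8.26 FPKM (SD, n = 5 each), 1.28-fold apart on the fitted scale (log2 fold change 0.35, SE 0.12, 95% interval 0.10 to 0.61). This did not pass over all genes (limma adjusted p = 0.107). The exact permutation test of Ddah2 alone, with no adjustment for the genes tested, gave p = 0.0159. In limma, 19.5% of all genes had an unadjusted p under 0.05. Leaving out sham replicate 1 brought the difference to 0.24 on the log2 scale (limma adjusted p = 0.0955). Among the 7 genes, 0 had every IPF lung above every sham lung, where 4.52% of all genes tested did.

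Ddah1 (ENSMUSG00000028194, chromosome 3, 145758675 to 145894277, plus strand), the other Ddah family gene, was at 11.8, 13.1, 14.9, 17.7 and 9.12 FPKM in IPF and 10.6, 12.3, 13.5, 13.0 and 13.4 FPKM in sham. IPF lungs were both the highest and the lowest of the 10, and the coefficient of variation was 24.4% in IPF against 9.71% in sham. The log2 fold change was 0.06 (SE 0.15, 95% interval -0.28 to 0.39, limma adjusted p = 0.883). It was 0.59 with the endothelial covariate, -0.054 without IPF replicate 4, -0.0034 without sham replicate 1 and 0.18 without IPF replicate 5, and none of these passed. Ddah1 contains the pseudogene Rpl36a-ps2 on the same strand (19.8 to 35.0 FPKM), so reads of either may be counted in both.

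The 2 Ddah enzymes summed to 76.5 ± 6.56 FPKM in IPF (65.4 to 81.9) and 62.4 ± 9.21 FPKM in sham (46.8 to 71.0; SD, n = 5 each), and Ddah2 made up 82.7 ± 3.49% of that sum in IPF and 79.7 ± 1.87% in sham, with overlapping ranges. The sum of the 3 synthases was 7.70 ± 1.05 FPKM in IPF and 8.02 ± 0.522 FPKM in sham, also with overlapping ranges. Nostrin was at 8.08 ± 1.41 times the FPKM of Nos3 in IPF and 6.37 ± 0.646 times in sham, again with overlap. These sums, shares and ratios are of RNA and not of enzyme activity, and are given as descriptions, with no test.

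**Figure D4:**
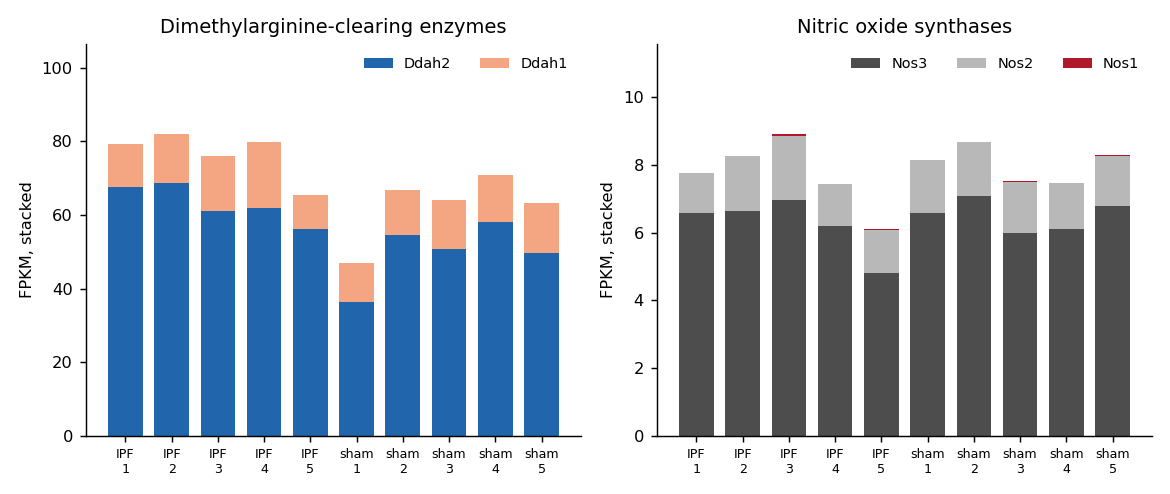
Stacked FPKM of the Ddah enzymes (left) and the nitric oxide synthases (right) in each of the 5 IPF and 5 sham lungs, on linear axes from 0. Ddah2 makes up most of the left bars and Nos3 most of the right bars in every lung, and the bar of sham replicate 1 (46.8 FPKM) is the shortest on the left.

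Of 37 related genes listed by role, 35 were tested, and 1 passed (2.86%, against 5.85% of all genes), with 25 higher, 10 lower and a median log2 fold change of 0.09. The one that passed was Slc7a2 (ENSMUSG00000031596, chromosome 8, 40862396 to 40922308), a cationic amino acid transporter that takes up arginine. It was at 3.65, 3.67, 5.10, 4.79 and 4.18 FPKM in IPF and 6.37, 5.45, 5.50, 6.01 and 6.38 FPKM in sham. All IPF lungs lay below all sham lungs, and Slc7a2 fell by 0.47 on the log2 scale (SE 0.10, limma adjusted p = 0.0217). Slc7a2 passed in 14 of 21 alternative settings, and in 5 of the 10 that each left out 1 library (not without IPF replicate 1 or 2 or sham replicate 1, 4 or 5). With the replicate number as a block its limma adjusted p was 0.0521. With the endothelial level as a covariate it was -0.48 on the log2 scale (SE 0.23) and did not pass (limma adjusted p = 0.302).

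The transporter Slc7a1 was the other related gene whose groups did not overlap, 2 of 35 (5.71%) where 7.29% of all genes did not overlap. It was at 2.08 ± 0.0849 FPKM in IPF and 2.50 ± 0.0882 FPKM in sham (SD, n = 5 each), a difference of -0.26 on the log2 scale that did not pass (limma adjusted p = 0.0703), but did with no variance trend (limma adjusted p = 0.0334) and with voom on recovered reads (limma adjusted p = 0.0356). Of the other uptake genes, Slc7a7 and Slc3a2 had log2 fold changes of 0.13 and 0.000539, and neither passed. With the endothelial level as a covariate, which itself separated the groups, Slc7a7 was at 0.69 and passed (limma adjusted p = 0.0286).

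In each other role no gene passed, and the gene with the smallest adjusted p is given. Both citrulline recycling genes had positive log2 fold changes, and argininosuccinate lyase, Asl, was at 0.29 (limma adjusted p = 0.131). Of 6 tetrahydrobiopterin genes 5 were positive, and sepiapterin reductase, Spr, was at 0.25 (limma adjusted p = 0.259). Of 6 synthase partners 4 were positive, and the chaperone gene Hsp90ab1 was at 0.43 (limma adjusted p = 0.0764) and passed in 5 of 21 alternative settings, with limma adjusted p-values over the 21 of 0.00640 to 0.257. Its log2 fold change was 0.96 with the endothelial covariate and 0.54 without IPF replicate 5, both of which passed. Of 6 nitric oxide receptor and cGMP effector genes all 6 were positive, with a median of 0.18 and 0 passing in limma (2 at an unadjusted p under 0.05, which 19.5% of all genes met), and the cGMP-dependent kinase gene Prkg2 was at 0.30 (limma adjusted p = 0.0764) and passed in 2 of 21 alternative settings. With the endothelial level as a covariate 3 of these 6 turned negative, Gucy1a2 (-0.23), Gucy1b1 (-0.13) and Prkg1 (-0.41). Smooth muscle markers, read because that tissue is known for this pathway, were negative in 5 of 6 with 0 passing, with a difference in mean log2 level of -0.31 (exact permutation test, p = 0.151) and summed levels of 114 to 235 FPKM in IPF and 143 to 182 in sham, and their part in these values was not tested.

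Of the 4 tested methyltransferase genes that give rise to dimethylarginines, 2 were positive, and Carm1 was at -0.17 (limma adjusted p = 0.271); the further clearance gene Agxt2 was listed at 0 in every lung. Of 6 genes that use ornithine or make polyamines 3 were positive. Ornithine decarboxylase, Odc1, was at -0.34 (limma adjusted p = 0.136), passed in 2 of 21 alternative settings and turned to 0.10 with the endothelial level as a covariate. Gatm, which uses arginine for creatine synthesis, was at 0.31 (limma adjusted p = 0.312), and Agmat was under the minimum for the fit.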

How the data were processed

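Whole-lung RNA in 5 IPF and 5 sham libraries (P30) was sequenced after a library kit that the labels and methods name differently. The deposited values are FPKM, and the methods name Fastp for trimming, HISAT2 for alignment and StringTie for quantification. Whether the deposited table came from these steps was not tested. Gene positions are those of GRCm38, although the methods name another build, and the submitters' processing notes also list Bowtie 0.12.2. Strand of the counting is not given in the sources used here. Values times gene length were whole multiples of 1 step per library (99.9% to 100.0% of values within 0.01 read), which gave the reads. Genes with a mean of at least 0.1 FPKM were tested with limma 3.58.1 (R 4.3.3, empirical Bayes with trend, Benjamini-Hochberg adjustment over 20448 genes) on log2(FPKM + 0.1), a scale that understates changes of low genes. Single values were compared by two-sided exact permutation tests over 252 assignments (126 without 1 library). The fit was tested on simulated data. Levels were prepared with Python 3.11.15, pandas 2.3.3 and numpy 2.4.6. Named are the 7 members, related genes that passed, per role the one with the smallest adjusted p, and the 3 genes most like Nos3 and most like each member that passed; all other genes in the text were named after their values were seen. Some genes of this group are not reported here. Members and lists were chosen with earlier results of these data known. Alternatives covered the pseudocount, the filter, scaling, the replicate block, library weights, the endothelial covariate, the recovered reads and leaving out each library.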

Additional observations from a re-analysis of the deposited data

How the results depend on the processing

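Of the members, 1 passed in the reported fit (Nostrin), and 0 passed with quantile normalization, with no variance trend and with the endothelial level as a covariate, by limma in each, with 2, 2 and 1 of 6 at an unadjusted p under 0.05, which 20.1%, 19.1% and 17.9% of all genes met. Leaving out each library in turn gave 0 to 1, with 0 without IPF replicate 1, 2 or 4 or sham replicate 1, 2, 3 or 5. Among related genes 1 passed, against 2 with a filter at a mean of 1 FPKM, 2 with the replicate block (Dynll1 and Odc1, without Slc7a2), 2 with no variance trend, 5 with library weights, 2 with the covariate (Hsp90ab1 and Slc7a7, without Slc7a2) and 3 with voom on recovered reads. Leaving out each library gave 0 to 3, with 0 without IPF replicate 1 or 2 or sham replicate 1, 4 or 5, 2 without IPF replicate 5 and 3 without IPF replicate 3. Over all genes 1196 passed, against 787 with the covariate, 1466 with voom on recovered reads, 1749 with library weights and 748 to 1619 without 1 library. Nos3 relative to endothelial markers was -0.23 with a pseudocount of 1 (exact permutation test, p = 0.0476) and -0.30 to -0.13 without 1 library (exact permutation p 0.0317 to 0.151).

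Log2 fold changes near 0 changed sign. With the covariate Nos2 was 0.33, Nos3 0.38 and Gch1 -0.071, Ddah1 moved from 0.06 to 0.59 and Ddah2 from 0.35 to 0.53 (neither passed), and with library weights Gch1 was -0.014. Without 1 library, Nos2 ranged from -0.18 to -0.0072, Nos3 from -0.11 to 0.022, Gch1 from -0.0065 to 0.060, Ddah1 from -0.054 to 0.18 and Nos1 (outside the fit) from -0.062 to 0.054. The cause was not tested. Same-numbered libraries correlated at -0.0204 to 0.0953 in their deviations from the group means, and 3 of 5 correlated best with their own number. These values do not decide whether the numbers mark pairs. The methods name no pairs, so the reported fit used none and the replicate block was an alternative. With the replicate block 1 member passed. Scaling moved the median of all genes by under 0.01. Nos1 rests on few reads, so only large changes were detectable for it.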

Other observations

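By correlation of log2 levels over 10 lungs after removing group means, among 13444 genes with a mean of at least 1 FPKM, the genes most like Nostrin were Ska2 (Pearson r 0.945), Ubtf (0.912) and Commd7 (0.910). The genes most like Nos3 were Dtx4 (0.959), Gm24727 (0.958) and Disp2 (0.947). All points share the same libraries, so these are descriptions with no test.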
